A study of Solanum tuberosum with 36 samples.

Results

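The 80 genes described here were almost silent in potato leaves before drought and carried reads in all 4 cultivars after 10 days without watering. They were chosen by the group means of the 4 tables that set day 0 beside day 10, 1 table for each cultivar. Of 25289 genes, 4616 had a day 0 mean of at most 10 normalised reads in every cultivar, and of these the 80 with the largest value of their smallest day 10 mean over the cultivars were kept. Their low level on day 0 and their reads on day 10 are therefore what chose them and are not findings. The reads on day 6 entered no part of the choice.

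The plants were Solanum tuberosum cultivars in 2 pairs of relatives, Gwiazda with Oberon and Tajfun with Owacja, of which Gwiazda and Tajfun are the drought-tolerant members and Oberon and Owacja the drought-sensitive ones. Watering was stopped some weeks after tubers had begun to form, and leaves near the top of the plant were taken on day 0 (still watered), day 6 and day 10 without water. Lack of water is the single treatment the labels name, and plants kept watered until days 6 and 10 were not analysed here, so days of drought and of plant age cannot be told apart. Each of the 12 groups of cultivar and day has 3 labelled strand-specific libraries from the leaves of different plants. The deposited means of Oberon day 10 held only 2, so 35 libraries were used. Their totals were 34298072 to 41041276 reads as counted by the authors' quantifier. The libraries are called a, b and c in the order of these totals, which is only a name. In whole leaves, more cells of a type and more RNA per cell cannot be told apart, and leaf marker genes were not checked here.

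When a leaf loses water, the hormone abscisic acid accumulates, guard cells close the stomata and a large programme of transcription begins. Genes that are off in a watered leaf and on in a dry one are the classical readout of this programme. They include dehydrins and other late embryogenesis abundant (LEA) proteins, which protect membranes and proteins during dehydration, and the potato dehydrin gene RAB18 (PGSC0003DMG400003531) served the study as its marker of drought. Some such genes answer the first fall in water content, and others come on only when wilting is advanced, when senescence and nutrient recycling also begin. The files name genes only by their PGSC identifiers (Potato Genome Sequencing Consortium), and neither the study nor the reference table used here pairs a name with any of the 80 members, so they are described below by identifier and by their reads, with no role.

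The members together held 2.85 to 6.03 RPM (reads per 1000000 reads of the library) in the 12 libraries of day 0. On day 6 they held 99.6 to 305 RPM in Gwiazda, 219 to 582 in Oberon, 329 to 615 in Tajfun and 529.8 to 702 in Owacja. On day 10 they held 388 to 610.2 RPM in Gwiazda, 419.9 and 650.4 in Oberon, 610.2 to 1862 in Tajfun and 930.2 to 1168 in Owacja. The libraries of day 6 thus lay above every library of day 0 in all 4 cultivars, and only in Owacja and Gwiazda did the libraries of day 10 lie above all those of day 6.

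**Figure D1:**
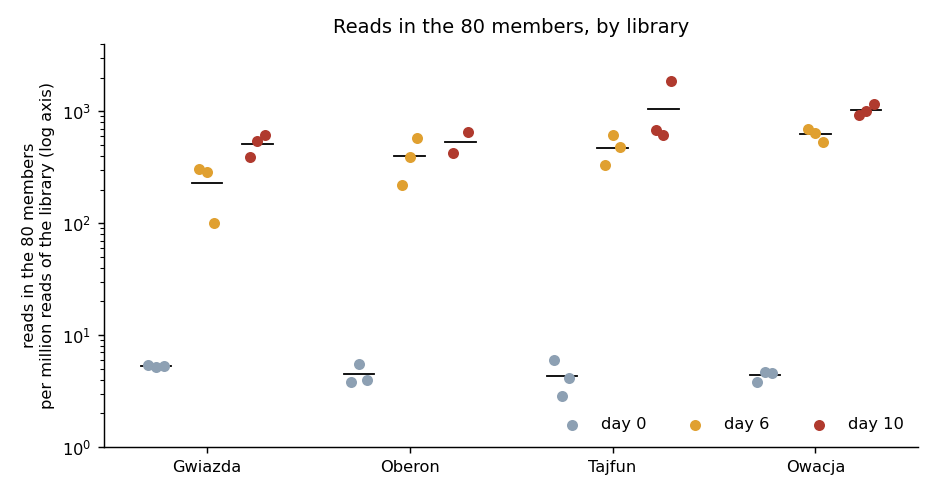
RPM held by the 80 members in each library (log axis), by cultivar, with days 0, 6 and 10 from left to right. Points are libraries and black lines are group means. All day 0 libraries lie between 2.85 and 6.03, and 1 library of Tajfun day 10 lies at 1862, above the other libraries.

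One library stands apart in this plot. In Tajfun day 10, library c held 1862 RPM in the members, against 683.6 in library a and 610.2 in library b, and 61 of the 80 members had their highest value of the group in it. In Gwiazda day 6, library c held 99.6 RPM in the members, against 305 in library a and 287 in library b, and only 8 members had their highest value there. Whether these plants differed in water content, or these libraries in quality, was not tested. The main counts that use them are also given below without them, a choice made after seeing the data.

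On day 0, 11 of the 80 members had no read in any of the 12 libraries, 599 of the 960 values (62.4%) were listed at 0, and the most reads that a member had in a library was 24. On day 10, 7 of 880 values were listed at 0, in 6 members. A value of 0 needs care in these files, since reads were shared out among transcripts by the authors' quantifier. Of 16572 genes with at least 100 reads in 2 libraries of some group, 749 were listed at 0 in the remaining library of such a group, and 5 members were among these.

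The strongest member was PGSC0003DMG400028988, whose smallest day 10 mean was 1304 in the deposited tables. All values from here on are normalised reads, which are the reads of a library divided by its size factor (the median ratio of its reads to the geometric mean over all libraries). In Gwiazda, PGSC0003DMG400028988 had 9.25, 0 and 12.7 normalised reads on day 0, 306, 167 and 80.3 on day 6, and 710.3, 2775 and 2750.4 on day 10. In Oberon it had 10.5, 1.97 and 0 on day 0, 42.1, 107 and 614 on day 6, and 1428 and 1231 on day 10. In Tajfun it had 5.95, 4.83 and 8.86 on day 0, 57.3, 88.3 and 131 on day 6, and 1226, 886 and 9621 on day 10. In Owacja it had 2.1, 2.72 and 2.37 on day 0, 172, 359 and 189 on day 6, and 2247, 3232 and 3934 on day 10. The 3 days did not overlap in any cultivar, although the gap between days 0 and 10 was built into the choice. The value of 9621 belongs to the library of Tajfun that stands apart.

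PGSC0003DMG400010207 came second and reached the highest values of all members. On day 10 it had 1245, 755 and 888 normalised reads in Gwiazda, 1535 and 912 in Oberon, 111, 101 and 1897 in Tajfun, and 5295, 5583 and 16322 in Owacja. On day 6 it had 940.2, 47.5 and 258 in Gwiazda, 34.1, 111 and 2.33 in Oberon, 106, 126 and 413 in Tajfun, and 618, 464 and 672 in Owacja. Its libraries of days 10 and 6 overlapped in Gwiazda and Tajfun and did not in Oberon and Owacja.

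The other 10 of the 12 strongest members had smallest day 10 means between 206 and 542. Among them were genes with very different courses. PGSC0003DMG400028028 had close levels on both days of drought, with day 10 means of 484 normalised reads in Gwiazda, 538 in Oberon, 758 in Tajfun and 328 in Owacja, against day 6 means of 437 to 489.9 in Gwiazda, Oberon and Tajfun and 373 in Owacja. PGSC0003DMG400008978 had day 10 means of 319 in Gwiazda, 256 in Oberon, 416 in Tajfun and 855 in Owacja, against day 6 means of 421 to 475 in the first 3 cultivars and 856 in Owacja. PGSC0003DMG400011438 had day 10 means of 589.9 in Gwiazda, 466 in Oberon, 5348 in Tajfun and 1092 in Owacja, against day 6 means of 1134, 1457, 3210.0 and 3940.2 in the same order of cultivars. Its mean in Tajfun on day 10 rests on library c, with 10744 beside 2417 and 2884. None of these 3 genes was called higher on day 10 than on day 6 in any cultivar, in the test described below.

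At the lower end, the members just inside the 80 were PGSC0003DMG400024279, PGSC0003DMG400026382 and PGSC0003DMG402013388, with smallest day 10 means of 30.3, 29.9 and 29.8. Just outside lay PGSC0003DMG400026022 with 29.3, PGSC0003DMG400020167 with 29.0 and PGSC0003DMG400034107 with 28.8. The members nearest to the limit of 10 on day 0 were PGSC0003DMG400011438 with a highest day 0 mean of 9.84, PGSC0003DMG400018309 with 9.82 and PGSC0003DMG401023186 with 9.70. Neither limit is a gap in the values, and with a day 0 limit of 5 or 20 in place of 10 only 42 or 41 of the 80 were chosen again.

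The first comparison asked which members were already up on day 6. Each group of day 6 was tested against day 0 of the same cultivar with limma on log2(normalised reads + 1), over all genes with a mean of at least 10 normalised reads in either group, and a gene was called at a Benjamini-Hochberg adjusted p below 0.05. Of the 80 members, the filter kept 54 in Gwiazda, 57 in Oberon, 59 in Tajfun and 67 in Owacja. Of these, 31 were called higher in Gwiazda, 31 in Oberon, 51 in Tajfun and 57 in Owacja. Over all genes tested, 6.57% were called higher in Gwiazda, 5.24% in Oberon, 15.6% in Tajfun and 14.7% in Owacja. The comparison uses the day 0 libraries that chose the members, and a member low on day 0 passed the filter only through its reads on day 6, so these counts describe the course of the members and support nothing. None of the members was called lower by limma, and none was lower at an unadjusted p below 0.05, whereas 10.4%, 6.61%, 21% and 20.7% of all genes were called lower in the same order of cultivars.

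The remaining members had not started by day 6 or missed the threshold. The mean of day 6 was still at most 10 normalised reads for 26 members in Gwiazda, 23 in Oberon, 21 in Tajfun and 14 in Owacja. In all, 22 members were called higher on day 6 in all 4 cultivars, 12 in 3, 20 in 2, 6 in 1 and 20 in none. Only 72 of the 80 were tested in at least 1 cultivar, and the untested ones are counted among those called in none. Over the 21619 genes tested in at least 1 cultivar these classes held 2.84%, 2.52%, 5.05%, 9.77% and 79.8%, from which nothing is read, since the day 0 libraries chose the members. By group means, 33 of the 80 had their highest day 6 value in Owacja, 18 in Tajfun, 15 in Oberon and 14 in Gwiazda. Without the low library c of Gwiazda day 6 these numbers were 31, 16, 14 and 19. The count called higher in Gwiazda was 34 without that library and 20 without library a of the same group. With no shares of all genes given for these fits, the counts show only how far they depend on single libraries.

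The second comparison set day 10 against day 6 within each cultivar. Of the 80 members, 37 were called higher on day 10 in Gwiazda, 6 in Oberon, 33 in Tajfun and 41 in Owacja, beside 10.5%, 0.832%, 6.82% and 17.3% of all genes tested. The day 10 libraries chose the members for being high, which leans this comparison toward higher values. Its counts and p-values, here and for the genes below, therefore describe the members and support nothing. In the opposite direction, 3 members were called lower on day 10 in Gwiazda, 1 in Oberon, 3 in Tajfun and 9 in Owacja, beside 8.89%, 0.476%, 8.69% and 16.4% of all genes. The counts of Oberon rest on 2 libraries of day 10 and varied between 0 and 14 calls in both directions together when 1 library was left out. At an unadjusted p below 0.05, 36 members were higher and 4 lower in Oberon. No shares of all genes are given at that threshold, so these counts are not read as a result about the members. A fit of all 12 groups with a shared spread called 36 higher and 2 lower there, beside 12.2% and 10.3% of all genes in that fit, so the low count of Oberon depends on the fit. In Gwiazda, 18 to 23 members were called in both directions when any 1 library of day 10 was left out, against 40 with all of them. With library c of Gwiazda day 6 left out, 29 were called higher and 4 lower. Shares of all genes are not given for the fits of Gwiazda or Oberon without 1 library. In Tajfun, the count in both directions was 36 with all libraries, 21 without day 6 library a and 18 without day 6 library b. Shares of all genes are likewise not given for the fits without a day 6 library of Tajfun. Without library c of Tajfun day 10, 31 members were called higher and 4 lower in Tajfun, beside 6.99% and 9.7% of all genes.

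By group means, 52 members were higher on day 10 than on day 6 in all 4 cultivars, 6 were higher on day 6 in all 4, and 22 were mixed. Without library c of Tajfun day 10 the first 2 counts were 49 and 8, and without library c of Gwiazda day 6 they were 52 and 6. In Tajfun alone, 70 members had the higher mean on day 10, and 63 did without its library c. The plot of group means is sorted by the ratio of day 6 to day 10. Its gradient from early to late members follows from that order. Whether the members form separate blocks was not tested.

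**Figure D2:**
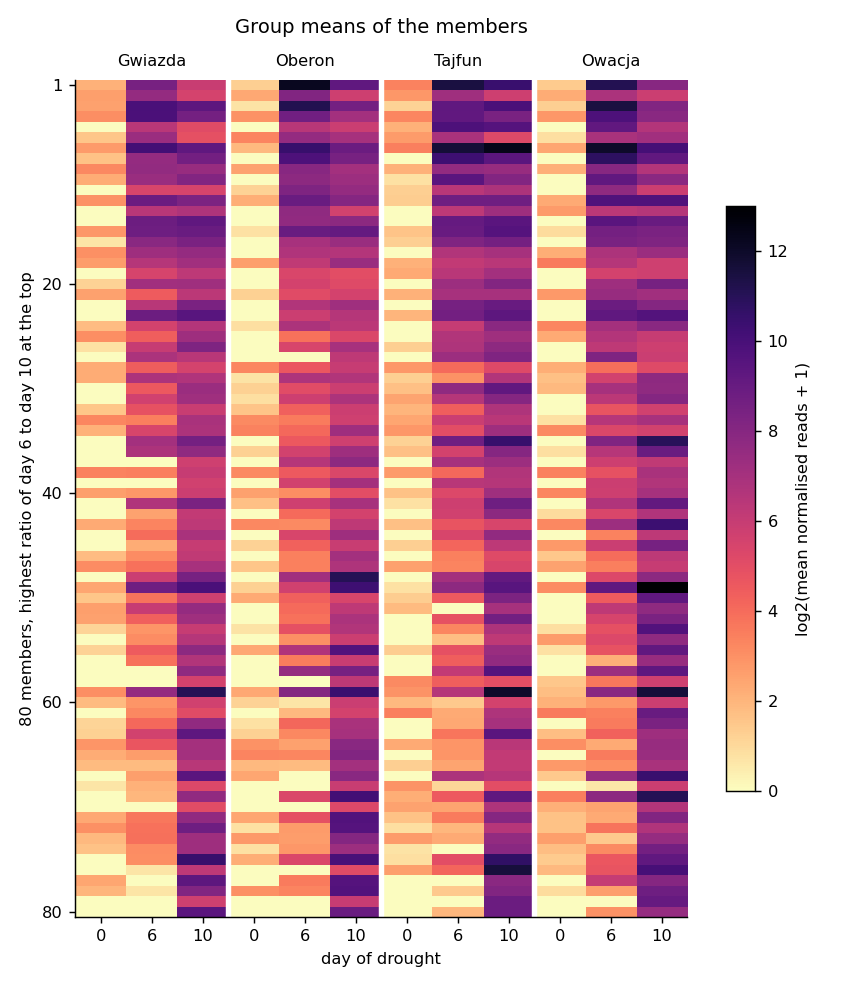
Group means of the 80 members on the scale log2(normalised reads + 1), one row for each member, ordered by the ratio of the day 6 to the day 10 level averaged over the 4 cultivars, highest at the top. Columns are days 0, 6 and 10 within each cultivar. Darker cells are higher, and the columns of day 6 pale from top to bottom while those of day 10 stay dark.

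The clearest early member was PGSC0003DMG401007944, with the highest ratio of day 6 to day 10. In Oberon it had 669.8 and 519 normalised reads on day 10, against 2746, 3776 and 7761 on day 6, the last being the highest value of any member in a library of that day. In Gwiazda it had 47.6, 65.8 and 67.3 on day 10, against 397, 543 and 106 on day 6. In Tajfun it had 1215, 1377 and 1581 on day 10, against 1642, 3083 and 3779 on day 6, and in Owacja 336, 201 and 196 on day 10, against 2953, 1455 and 2268 on day 6. Days 10 and 6 did not overlap in any cultivar. The log2 difference of day 10 against day 6 was -3.17 (SE 0.30, limma adjusted p = 0.000239) in Owacja, where the call held without any 1 library. It was -2.87 (SE 0.46, adjusted p = 0.0488) in Oberon and -2.23 (SE 0.60, adjusted p = 0.0369) in Gwiazda, where the call was lost without any of 4 libraries in Oberon and any of 5 in Gwiazda, with adjusted p up to 0.386 and 0.117. In Tajfun the difference was -0.95 (SE 0.30, adjusted p = 0.0703).

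PGSC0003DMG400020280 had a lower level and the same course. On day 10 it had 51.4, 53.5 and 28.8 normalised reads in Gwiazda, 69.1 and 36.6 in Oberon, 33.2, 61.5 and 66.4 in Tajfun, and 63.4, 73.2 and 30.02 in Owacja. On day 6 it had 175, 231 and 156 in Gwiazda, 221, 270.2 and 349 in Oberon, 91.0, 155 and 189 in Tajfun, and 177, 57.2 and 109 in Owacja. It fell in Gwiazda, by 2.08 on the log2 scale (SE 0.40, limma adjusted p = 0.0115), a call that held without any 1 library, and was not called in the other cultivars. Only in Owacja did the libraries of both days overlap.

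PGSC0003DMG400021563 had a lower mean on day 10 than on day 6 in all 4 cultivars and was called lower in Owacja and Tajfun. In Owacja it had 276, 274 and 155 normalised reads on day 10, against 712, 1052 and 1003 on day 6, a log2 difference of -2.00 (SE 0.27, limma adjusted p = 0.00119). In Tajfun it had 315, 298 and 398 on day 10, against 566, 571 and 604 on day 6, a log2 difference of -0.79 (SE 0.19, adjusted p = 0.0314), a call that was lost in 5 of 6 fits without 1 library. In Gwiazda it had 394, 331 and 415 on day 10, against 1373, 1103 and 319 on day 6, and the low value of day 6 is that of library c. Gwiazda was not called (limma adjusted p = 0.182), except in 1 of 6 fits without 1 library. In Oberon its mean was 134 on day 10, against 408 on day 6. The log2 difference of -1.59 in Oberon missed the threshold (limma adjusted p = 0.0794).

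PGSC0003DMG400000628 split the cultivars. In Owacja it had 257, 300.5 and 282 normalised reads on day 10, against 3461, 3301 and 1774 on day 6, and fell by 3.28 on the log2 scale (SE 0.26, limma adjusted p = 9.39e-05). In Tajfun it had 559, 584 and 1726 on day 10, against 768, 651 and 346 on day 6, with a log2 difference of 0.57 (SE 0.48, adjusted p = 0.444). In Oberon it had 301 and 452 on day 10, against 1246, 2176 and 3280.2 on day 6, which did not overlap and missed the threshold (adjusted p = 0.0571). In Gwiazda it had 196, 1214 and 494 on day 10, against 646, 2057 and 178 on day 6, which overlapped.

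**Figure D3:**
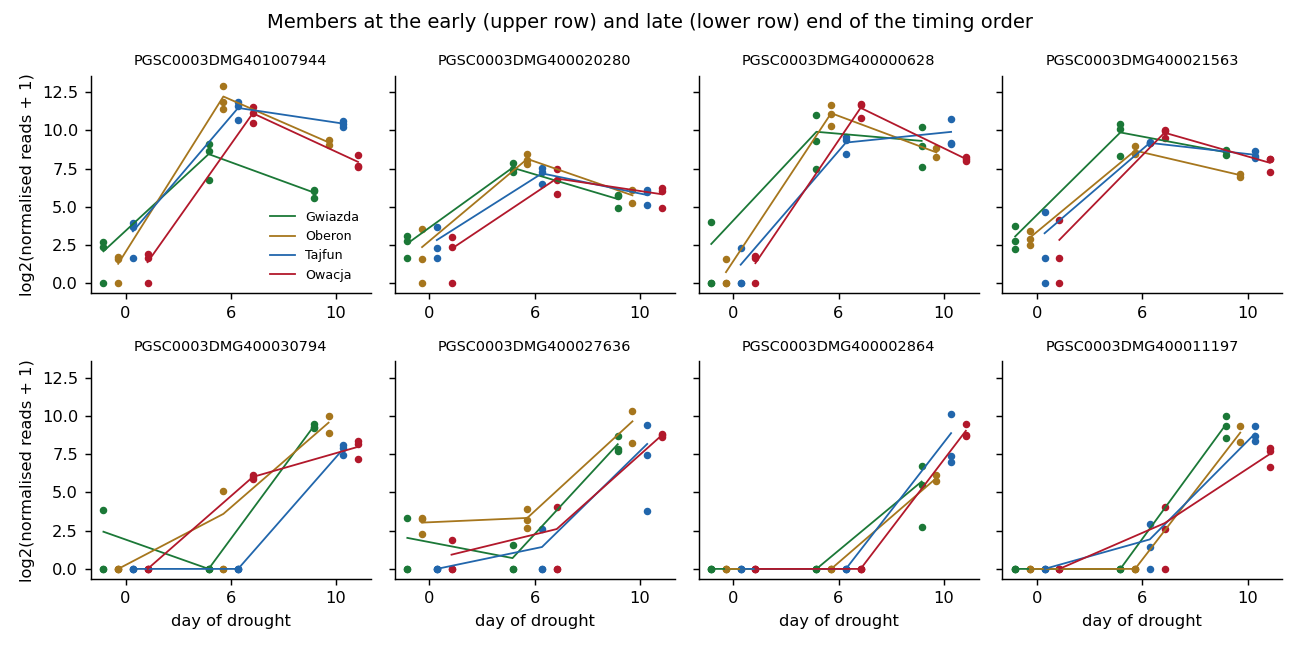
The 4 members with the highest ratio of day 6 to day 10 (upper row) and the 4 with the lowest (lower row), on the scale log2(normalised reads + 1) against the day of drought. Points are libraries and lines join group means by cultivar. PGSC0003DMG401007944 peaks on day 6 in all 4 cultivars, and PGSC0003DMG400002864 lies at 0 in all libraries of days 0 and 6.

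At the other end were members that came on only after day 6. PGSC0003DMG400002864 was listed at 0 in all 24 libraries of days 0 and 6. On day 10 it had 5.71, 43.2 and 106 normalised reads in Gwiazda, 51.8 and 69.2 in Oberon, 166, 125 and 1119.9 in Tajfun, and 414, 439 and 713 in Owacja. It was the only member with no read on day 6 in any cultivar. Its level on day 10 was lowest in Gwiazda and Oberon, whose libraries overlapped, and every library of Tajfun and Owacja lay above them.

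PGSC0003DMG400011197 had no read on day 0, none on day 6 in Gwiazda and Oberon, and 0 to 15.6 normalised reads in the day 6 libraries of Tajfun and Owacja. On day 10 it had 655, 372 and 1017 in Gwiazda, 309 and 653 in Oberon, 323, 422 and 638 in Tajfun, and 205, 237 and 102 in Owacja. It was 1 of 5 members called higher on day 10 than on day 6 in all 4 cultivars, beside PGSC0003DMG400012619, PGSC0003DMG400027636, PGSC0003DMG400019952 and PGSC0003DMG400011844. Over the 21391 genes tested in at least 1 cultivar, 0.482% were called higher in all 4. The members were chosen for high day 10 means in all 4 cultivars, so these calls and their p-values describe them and support nothing. The call in Oberon was lost without any of 3 libraries for PGSC0003DMG400011197, with limma adjusted p up to 0.165, and without any of 4 of the 5 libraries for each of the other genes, with adjusted p up to 0.303. In the other 3 cultivars these calls held without any 1 library, except for PGSC0003DMG400027636 in Tajfun.

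PGSC0003DMG400027636 had 229, 209.8 and 413 normalised reads on day 10 in Gwiazda, 307 and 1301 in Oberon, 12.9, 172 and 678 in Tajfun, and 435, 402 and 453 in Owacja, against at most 15.3 in any library of day 6. The libraries of Tajfun were the farthest apart as a ratio, with the highest value in library c, and the call of day 10 against day 6 in Tajfun was lost without any of 5 of the 6 libraries, library c among them (limma adjusted p up to 0.103). PGSC0003DMG400012619, the third strongest member, had 1171, 607 and 2551 normalised reads on day 10 in Gwiazda, 858 and 1164 in Oberon, 669, 2153 and 2173 in Tajfun, and 627, 548 and 598 in Owacja, against 2.11 to 65.1 in the libraries of day 6, so the lowest library of each cultivar on day 10 lay above all libraries of day 6.

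PGSC0003DMG400030794 was late in 3 cultivars and less so in Owacja. On day 10 it had 711, 623 and 606 normalised reads in Gwiazda, 476 and 1038 in Oberon, 243, 269.6 and 176 in Tajfun, and 323, 289 and 145 in Owacja. On day 6 it was listed at 0 in all libraries of Gwiazda and Tajfun, had 0, 33.3 and 0 in Oberon, and had 69.6, 57.2 and 64.3 in Owacja. In all, 9 members kept a day 6 mean of at most 10 in every cultivar, among them PGSC0003DMG400002864, PGSC0003DMG400011197 and PGSC0003DMG400027636.

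The study asked how tolerant and sensitive relatives differ, and the tolerant cultivar was compared with the sensitive one of its pair on each day of drought. Day 6 is the comparison in which no library had a part in choosing the members. The filter kept a member with a mean of at least 10 normalised reads in either cultivar. Some members thus entered only through the cultivar where they were high, so the shares and medians below are a description. On day 6, none of the 63 members tested was called higher in Gwiazda than in Oberon and 1 was called lower, beside 0.481% and 0.574% of all genes. At an unadjusted p below 0.05, 6 were higher and 8 lower, and a fit of all 12 groups with a shared spread called 15 in both directions. No shares of all genes are given for these counts, so they are not read as a result about the members. In the other pair, 1 of 69 members tested was called higher in Tajfun than in Owacja and 8 were called lower, beside 5.97% and 5.78% of all genes. The share called lower in Tajfun was 11.6% of the members tested. The median log2 difference of the members was -0.43, beside 0.02 over all genes tested. Without Owacja library b, 5 members were called in this pair in place of 9, with no share of all genes given for that fit.

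The member called between Gwiazda and Oberon on day 6 was the early gene PGSC0003DMG401007944, with 397, 543 and 106 normalised reads in Gwiazda, against 2746, 3776 and 7761 in Oberon. The log2 difference was -3.92 (SE 0.64, limma adjusted p = 0.0391). Wider differences were measured in members that were not called, such as PGSC0003DMG400016643, whose values are given below, with -5.36 (SE 2.15, adjusted p = 0.291). The call of PGSC0003DMG401007944 was lost without any 1 of the 6 libraries, with adjusted p between 0.0545 and 0.132, while the groups did not overlap.

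Between Tajfun and Owacja on day 6 the widest log2 differences were those of PGSC0003DMG400030794 and PGSC0003DMG400022185. PGSC0003DMG400030794 was listed at 0 in all 3 libraries of Tajfun, against 69.6, 57.2 and 64.3 normalised reads in Owacja (limma adjusted p = 0.000939). PGSC0003DMG400022185 was likewise listed at 0 in the libraries of Tajfun, against 35.7, 135 and 52.1 in Owacja (adjusted p = 0.0022). Their log2 differences were both -6.01, sizes that depend on the 1 read added before taking logarithms and are not bounds, and the mean in Owacja was higher for PGSC0003DMG400022185 (74.3 against 63.7). Both calls held without any 1 library. PGSC0003DMG400009720 had 1.68, 0 and 5.3 in Tajfun, against 27.2, 53.7 and 31.3 in Owacja (adjusted p = 0.0206), a call lost without Owacja library b or c, with adjusted p up to 0.0862. In these 3 genes every library of Tajfun lay below every library of Owacja. Their day 6 means in Tajfun were 0, 0 and 2.33 in the order named, so they passed the filter only through Owacja. The single member called higher in Tajfun was PGSC0003DMG400001960, by 1.13 on the log2 scale (SE 0.25, adjusted p = 0.0265).

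The tests of day 10 use the libraries whose smallest mean over the cultivars chose the members. Their counts and p-values, here and for the genes below, therefore describe the members and support nothing. On day 10, 3 members were called higher in Gwiazda than in Oberon and 3 lower, beside 1.58% and 1.37% of all genes tested. Between Tajfun and Owacja, 8 were called higher in Tajfun and 7 lower, beside 8.74% and 10.2% of all genes. Without library c of Tajfun, which stands apart, 9 were called higher and 21 lower, beside 13.6% and 16.1% of all genes in that fit, so the balance of the directions depends on this library. The count of both directions was 1 or 2 in Gwiazda against Oberon when any 1 library was left out, and 2 in a fit of all 12 groups with a shared spread. In Tajfun against Owacja it was 15 with all libraries, 9 without Tajfun library a and 4 to 6 without any 1 library of Owacja. The fit of all 12 groups called 2 higher and 6 lower in Tajfun. Where no share of all genes stands beside a count, the count shows only how far it depends on the fit.

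**Figure D4:**
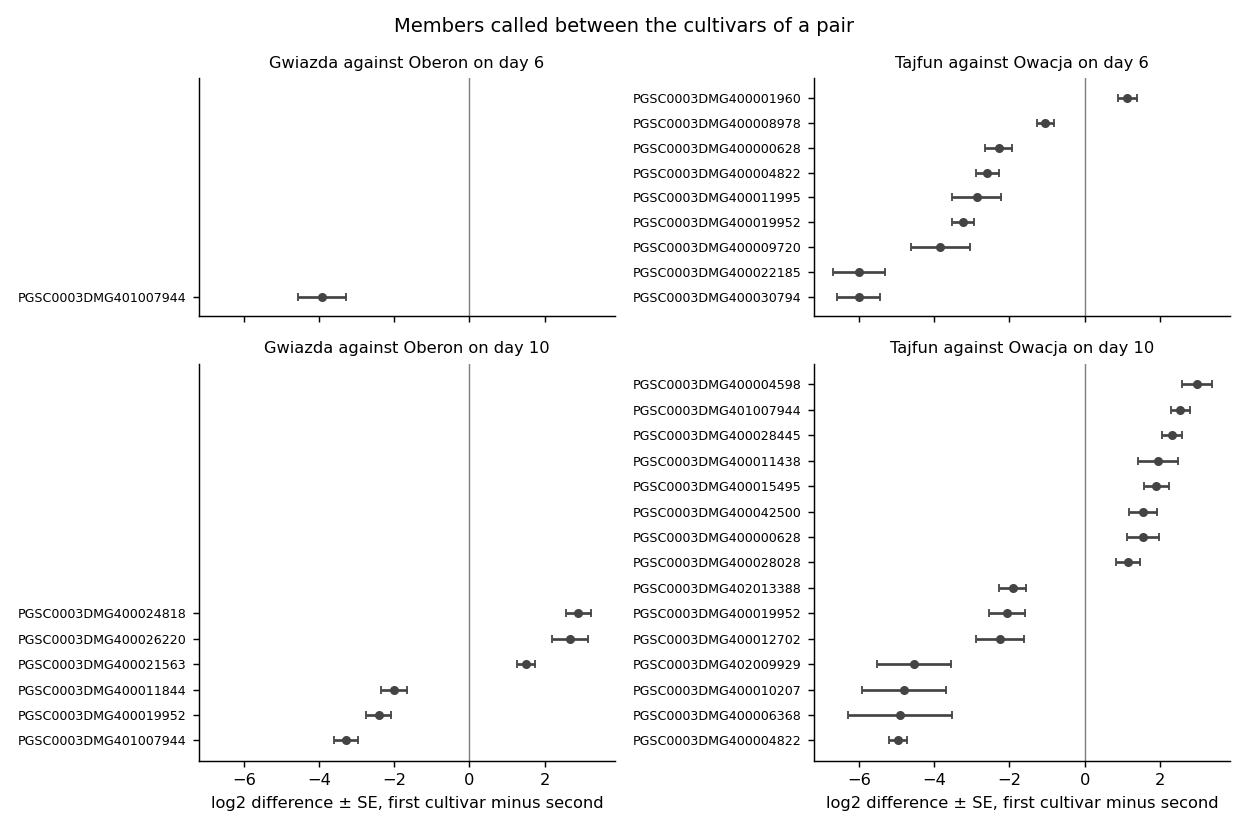
Log2 differences (± SE of the limma fit) of the members called between the cultivars of a pair, tolerant minus sensitive, on day 6 (upper panels) and day 10 (lower panels). Points left of 0 are members lower in Gwiazda or Tajfun. In Tajfun against Owacja, 8 of 9 called members lie left of 0 on day 6, and 7 of 15 on day 10.

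Among the members called between Gwiazda and Oberon on day 10, PGSC0003DMG401007944 had the widest difference, with 47.6, 65.8 and 67.3 normalised reads in Gwiazda, against 669.8 and 519 in Oberon. The log2 difference was -3.29 (SE 0.31, limma adjusted p = 0.00615), and the call was lost without either library of Oberon, with adjusted p up to 0.0952. In the other pair the same gene was higher in the tolerant cultivar, with 1215, 1377 and 1581 in Tajfun, against 336, 201 and 196 in Owacja, a log2 difference of 2.54 (SE 0.25, adjusted p = 0.00186). The direction in the tolerant cultivar thus differed between the pairs.

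PGSC0003DMG400024818 had lower values in both day 10 libraries of Oberon than in any other library of that day. By day 10 it had 463, 942 and 752 normalised reads in Gwiazda, against 90.2 and 93.6 in Oberon, and 651, 404 and 847 in Tajfun, against 619, 950.2 and 831 in Owacja. The log2 difference between Gwiazda and Oberon was 2.89 (SE 0.33, limma adjusted p = 0.0114), a call kept in 1 of 5 fits without 1 library and lost in the fit of all 12 groups (adjusted p = 0.155). On day 6 the same gene had 754, 194 and 412 in Gwiazda, against 88.3, 77.2 and 0 in Oberon. PGSC0003DMG400026220 had 229, 259 and 649.7 in Gwiazda on day 10, against 51.8 and 52.9 in Oberon, a log2 difference of 2.67 (SE 0.48, adjusted p = 0.0415) whose call was lost whichever library was left out. In both genes the 2 groups did not overlap.

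PGSC0003DMG400004822 had higher values in all day 10 libraries of Owacja than in any other library of that day. The values of day 10 were 51.6, 34.4 and 36.7 normalised reads in Tajfun, against 1174, 1258 and 1473 in Owacja, and 74.3, 74.1 and 78.8 in Gwiazda, against 51.8 and 95.7 in Oberon. The log2 difference between Tajfun and Owacja was -4.97 (SE 0.24, limma adjusted p = 0.000219) and held without any 1 library. On day 6 it already had 26.9, 30.6 and 19.4 in Tajfun, against 175, 149 and 148 in Owacja, a log2 difference of -2.59 (SE 0.30, adjusted p = 0.0022).

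PGSC0003DMG400006368 and PGSC0003DMG400010207 were also lower in Tajfun on day 10, and in both the libraries of Tajfun were far apart. PGSC0003DMG400006368 had 3.69, 12.7 and 307 normalised reads in Tajfun, against 739, 1014 and 716 in Owacja, a log2 difference of -4.91 (SE 1.38, limma adjusted p = 0.0476). PGSC0003DMG400010207, with the values given above, had a log2 difference of -4.81 (SE 1.11, adjusted p = 0.0274). The third value of Tajfun is in each case that of library c. Without that library the differences were -6.67 (adjusted p = 0.000811) and -6.20 (adjusted p = 0.000956), and without any other library of the 6 both calls were lost, with adjusted p up to 0.141 and 0.0969.

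The level that a member reached on day 10 varied between cultivars by a median factor of 3.38 between its highest and lowest cultivar mean. The range was from 1.21 in PGSC0003DMG400033612 to 91.1 in PGSC0003DMG400028182. The day 10 means had a part in choosing the members, so these factors are a description. The highest mean was in Owacja or Tajfun for 27 members each, in Oberon for 19 and in Gwiazda for 7. With library c of Tajfun left out, the median factor was 3.46, and the highest mean was in Owacja for 33 members, in Oberon for 20, in Tajfun for 14 and in Gwiazda for 13, so the standing of Tajfun rests on that library. PGSC0003DMG400028182 had 47.6, 92.6 and 88.4 normalised reads in Gwiazda and 7.68 and 59.02 in Oberon, but 5284, 877 and 2953 in Tajfun and 924, 792 and 1445 in Owacja. Every library of the second pair lay above every library of the first. The pairs were not tested against each other.

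Whether the change between days 6 and 10 differed within a pair was tested as an interaction over the 4 groups of the pair. The day 10 libraries used here chose the members for being high in all 4 cultivars. The counts and p-values therefore describe the members and support nothing. Between Gwiazda and Oberon no member was called in either direction, beside 0.0296% of all genes called higher and 0.00494% called lower. At an unadjusted p below 0.05, 2 members were higher and 1 lower, and with Oberon day 6 library a left out 1 member was called. No shares of all genes are given for these counts. Between Tajfun and Owacja, 5 members were called with a more positive change in Tajfun and 1 with a more negative one, beside 0.592% and 0.961% of all genes. Without library c of Tajfun day 10 the count of both directions was 14 in place of 6, with no share of all genes given for that fit. The 3 widest were PGSC0003DMG400030794 with a difference of the log2 changes of 5.93 (SE 0.52, limma adjusted p = 0.000546), PGSC0003DMG400022185 with 5.23 (SE 0.67, adjusted p = 0.00296) and PGSC0003DMG400000628 with 3.85 (SE 0.61, adjusted p = 0.00878). All 3 calls held without any 1 of the 12 libraries. The first 2 were listed at 0 in all libraries of Tajfun day 6, so the sizes of their differences depend on the 1 read added before taking logarithms and are not bounds.

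A pair of members moved together from library to library. PGSC0003DMG400012837 had no read on day 0 in any library. On day 6 it had 1056, 295 and 0 normalised reads in Gwiazda, 18.1, 0 and 575 in Oberon, 633, 843 and 139 in Tajfun, and 1123, 664 and 292 in Owacja. The values of day 10 were 110.5, 1569.6 and 121 in Gwiazda, 67.2 and 372 in Oberon, 1067, 74.2 and 915 in Tajfun, and 418, 567 and 513 in Owacja. PGSC0003DMG400002471 had 0 to 2.42 in the libraries of day 0. On day 6 it had 543, 161 and 4.23 in Gwiazda, 14.0, 7.02 and 344 in Oberon, 332, 467 and 90.0 in Tajfun, and 515, 350.0 and 137 in Owacja. The values of day 10 were 78.1, 839 and 76.9 in Gwiazda, 59.5 and 273 in Oberon, 525, 77.8 and 517 in Tajfun, and 267, 368 and 245 in Owacja. High and low libraries were largely shared by both genes, although the order of close values differed, as in Owacja day 10, and neither gene was called in any comparison of cultivars. Over the 23 libraries of days 6 and 10, their deviations from the group means on the log2 scale had a Pearson r of 0.97, beside a median of 0.14 over the 3160 pairs of members. These libraries share their groups and depth, the pair was picked as the most alike of all, and whether reads of similar sequence were shared between the 2 genes was not tested. In the 20 libraries with at least 50 reads in both, PGSC0003DMG400002471 had 0.458 to 1.05 times the reads of PGSC0003DMG400012837, with a median of 0.56.

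**Figure D5:**
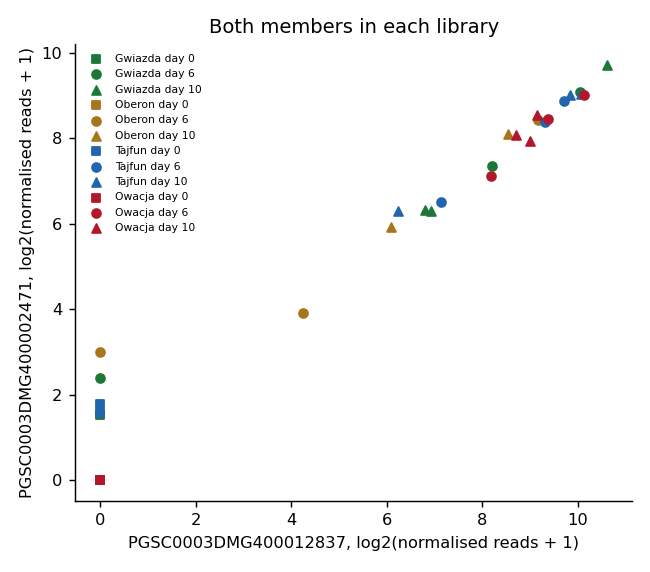
PGSC0003DMG400002471 against PGSC0003DMG400012837 in each library, both on the scale log2(normalised reads + 1). Colours are cultivars, and squares, circles and triangles are days 0, 6 and 10. Libraries high for 1 gene are high for the other, and all 12 libraries of day 0 lie at 0 of PGSC0003DMG400012837.

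PGSC0003DMG400016643, the twelfth strongest member, had no read on day 0, and on day 6 it had 0 in all 3 libraries of Gwiazda, 0, 200.03 and 342 normalised reads in Oberon, 0, 83.2 and 125 in Tajfun, and 279, 31.2 and 162 in Owacja. By day 10 it had 129, 181 and 299.8 in Gwiazda, 378 and 346 in Oberon, 478, 356 and 1448 in Tajfun, and 651, 618 and 561 in Owacja. PGSC0003DMG400021166 had no read on day 0 outside 1 library of Gwiazda with 6.35, and on day 6 it already had 150.1, 219 and 184 in Gwiazda, 428, 519 and 1791 in Oberon, 840.4, 1638 and 1308 in Tajfun, and 1754, 2582 and 945 in Owacja. By day 10 it had 244, 385 and 549.7 in Gwiazda, 305 and 387 in Oberon, 597, 704 and 648 in Tajfun, and 453, 821 and 429 in Owacja. Its libraries of days 10 and 6 did not overlap in Gwiazda (limma adjusted p = 0.0762), and it was called lower in Tajfun, by 0.91 on the log2 scale (SE 0.25, limma adjusted p = 0.0487), and in Owacja, by 1.58 (SE 0.39, adjusted p = 0.016).

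None of the 24 genes that the study itself named as drought-linked was among the 80. The study chose most of those genes on these samples, so they are no independent evidence. Of these genes, 23 had a day 0 mean above 10 in at least 1 cultivar, 19 of these for that reason alone. RAB18 had day 0 means of 60.5 to 134 normalised reads, day 6 means of 2087 in Gwiazda, 1997 in Oberon, 4203 in Tajfun and 3514 in Owacja, and day 10 means of 1016, 878, 3344 and 1520.3 in the same order. Its day 0 means above 10 kept RAB18 out of the 80. By RT-PCR, a different measure, the study described day 0 as having no RAB18 mRNA. CAP160 (PGSC0003DMG400014293), named after a cold acclimation protein of spinach, had day 6 means of 9846 to 42525 and day 0 means of 25.3 to 182. The remaining gene, a homologue of Late Embryogenesis Abundant 1 (PGSC0003DMG400008497), passed the day 0 limit with a highest mean of 9.37 in the deposited tables and missed the 80 by its day 10 mean of 23.97 in Owacja. It had 289.7, 501 and 461 in Tajfun on day 6, against 155, 72.8 and 103 in Owacja (log2 difference 1.94, SE 0.33, limma adjusted p = 0.011). Of the 24 genes, 10 were called higher on day 6 than on day 0 in Gwiazda, 11 in Oberon, 16 in Tajfun and 11 in Owacja, beside 6.57%, 5.24%, 15.6% and 14.7% of all genes tested. In the same order, 4, 2, 7 and 2 were called lower, beside 10.4%, 6.61%, 21% and 20.7%.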

How the data were processed

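The authors checked reads with FastQC, mapped them with TopHat2 to the potato pseudomolecules of clone DM1-3, quantified transcripts with Flux Capacitor, summed them per gene and compared groups with DESeq. Version numbers are not repeated here. The 18 deposited tables hold, for a pair of groups, the mean normalised signal of each group, which are reads divided by size factors, and the authors' own fold changes and p-values, none of which was used.

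Each group stands in 3 tables with different scaling, so its libraries were solved from the 3 sets of means, and 100% of 885115 values came within 1e-05 of a whole read. This gave 35 of 36 labelled libraries (Oberon day 10 gave 2) of 34298072 to 41041276 reads. These totals of quantified reads exceed the mapped reads that the study lists for its libraries, for a reason that was not tested. The solved libraries carry no replicate number. Of each group's values, 97.2% to 98.1% were even, as when both mates of a pair are counted. The recovery and the test were tested on simulated data.

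Reads were scaled by size factors (median of ratios over the 35 libraries). limma 3.58.1 in R 4.3.3 (lmFit, eBayes with trend) was run on log2(normalised reads + 1) of the groups compared, over genes with a mean of at least 10 in either group, with Benjamini-Hochberg adjustment over all genes tested. A fold change on this scale understates the change of low genes. P-values measure the spread between libraries of different plants. Count models were not run.

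The genes named are the 12 strongest members, up to 3 called members of each cultivar comparison and of the interaction, the 4 at each end of the ratio of day 6 to day 10, and those at the limits of the choice. PGSC0003DMG400002471, PGSC0003DMG400028182 and the other genes named beside counts of 5 or fewer were chosen after their values were seen. The members, the lists and the 24 genes named by the study were chosen with earlier results of these data known. Alternatives were another pseudocount, no filter, scaling by library total, a fit of all 12 groups, a 2-fold rule on the authors' means, other rules for the members and leaving out each library.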

Additional observations from a re-analysis of the deposited data

Results flagged for a closer look

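The change between days 6 and 10 differed between Tajfun and Owacja for 6 members by the interaction test of limma, given as the log2 change in Tajfun minus that in Owacja. It was 5.93 for PGSC0003DMG400030794 (adjusted p = 0.000546) and 5.23 for PGSC0003DMG400022185 (adjusted p = 0.00296), both listed at 0 in every library of Tajfun day 6. It was 3.85 for PGSC0003DMG400000628 (adjusted p = 0.00878), which fell in Owacja and was not called in Tajfun. It was 3.33 for PGSC0003DMG400028445 (adjusted p = 0.00235), with 264, 253 and 372 normalised reads in Tajfun on day 10 against 111, 217 and 129 on day 6, and 56.0, 52.6 and 64.6 in Owacja on day 10 against 328, 331 and 236 on day 6. It was 2.22 for PGSC0003DMG401007944 (adjusted p = 0.0406) and -2.39 for PGSC0003DMG400004822 (adjusted p = 0.0082), the single member of the 6 whose change was the more positive in Owacja. The interaction test uses the day 10 libraries that chose the members, so these values are a description.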

How the results depend on the processing

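No paired analysis was possible because the solved libraries carry no replicate numbers. Under a 2-fold rule on the authors' means, with no test, the members counted were 50 and 55 for day 6 against day 0 in Gwiazda and Oberon, and 62 and 61 for day 10 against day 6 in the same cultivars. Between Gwiazda and Oberon this rule gave 34 on day 6 and 29 on day 10, and between Tajfun and Owacja 23 and 36. A fit of all 12 groups called 47 for day 6 and 38 for day 10 against day 6 in Oberon, 15 and 2 between Gwiazda and Oberon on days 6 and 10, and 8 between Tajfun and Owacja on day 10. A pseudocount of 5 gave 14 for day 10 against day 6 in Oberon. No shares of all genes stand beside these counts, which show only how the counts of members depend on the processing. The choice shared 42 members with the 80 under a day 0 limit of 5 and 41 under a limit of 20, beside 68 to 76 under 3 other rules. Of 67 values of such alternatives, 51 stayed within 1.5 times and 16 moved farther. Of 108 values with 1 library left out, 78 stayed within 1.5 times and 30 moved farther. Scaling by library total moved the median of all genes to 0.35 in Tajfun and 0.40 in Owacja for day 6 against day 0 and -0.14 in Owacja for day 10 against day 6, and moved no count of members by over 1.5 times.

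With 1 library left out, the counts for day 6 against day 0 were 20 to 34 in Gwiazda, 22 to 29 in Oberon, 45 to 50 in Tajfun and 52 to 56 in Owacja. For day 10 against day 6 they were 18 to 39 in Gwiazda, 0 to 14 in Oberon, 18 to 35 in Tajfun and 45 to 52 in Owacja. Between Gwiazda and Oberon they were 0 to 1 on day 6 and 1 to 2 on day 10, and between Tajfun and Owacja 5 to 9 and 4 to 30. The interaction gave 0 to 1 in the first pair and 5 to 14 in the second, and the timing classes gave 6 to 8, 49 to 52 and 8 to 9 without library c of Tajfun day 10 or of Gwiazda day 6. Without library c of Tajfun day 10, 14 members in place of 27 had their highest day 10 mean in Tajfun, and 13 in place of 7 had it in Gwiazda. Where a group is left with 1 library, it is assumed to vary like the others. The 1.5-fold and 4-fold rules were not run, since a test could be made. No shares of all genes stand beside the counts without 1 library, which show only how far they depend on single libraries. The cause of these differences was not tested.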

Other observations

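Besides PGSC0003DMG400012837 and PGSC0003DMG400002471, 2 other pairs of members had a Pearson r above 0.9 over the deviations of the 23 libraries of days 6 and 10 from their group means. They were PGSC0003DMG400026590 with PGSC0003DMG400015495 (r = 0.95) and PGSC0003DMG400011438 with PGSC0003DMG400008978 (r = 0.93). These are descriptions over libraries that share their groups, picked from 3160 pairs.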
